A study of Mus musculus with 24 samples.

Results

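The genes described here are 46 mouse genes that license replication origins, fire them and run the replication fork, chosen by name: the named subunits of the origin recognition complex, the loading factors, the Mcm2-7 helicase, the firing factors, the Gins complex, the 3 replicative polymerases, the sliding clamp and its loader, the single-strand binding protein Rpa, the enzymes that join the lagging strand, chromatin assembly factor 1 and the proteins that travel with the fork. Of these, 45 had a listed probe set, and Chaf1a is not analysed here. The 45 genes were read by 89 of the 35066 probe sets tested, and each gene is given by the brightest of its probe sets, as were all 15427 genes measured. RNA was hybridised to 24 Affymetrix MOE430_2 arrays, in 8 groups of 3. Small intestine came from mice on an outbred background that carried the AhCre transgene, a Cre recombinase that beta-naphthoflavone switches on, and either 2 floxed alleles of Apc (Apcfl/fl) or wild-type Apc. All of these mice, controls included, had 3 injections of 80 mg/kg beta-naphthoflavone, and tissue was taken 3, 4 or 5 days after induction. The other 6 arrays held pooled polyps from the colon of 1 ApcMin mouse each, and normal colonic mucosa of ApcMin mice, so that both of these groups carry the germline truncating Apc allele. Of these 6 samples 5 are labelled as untreated, and for the other no treatment is given. The methods call the polyps and normal colon paired, but the labels of these 6 arrays carry 6 different animal identifiers, so no pairs were formed. Ages are not given in the labels. The comparisons ask what the replication genes did when Apc was lost acutely in the small intestine, and in polyps against normal colon.

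In G1 phase the origin recognition complex marks origins, and Cdc6 and Cdt1 load a double ring of Mcm2-7 on the DNA there, which is called licensing. In S phase the kinase Cdc7 with its partner Dbf4 acts on Mcm2-7, Cdc45 and Gins join it to form the active helicase, and polymerases alpha, delta and epsilon copy the strands. In the intestine the cells that replicate DNA lie in the crypts, and Apc restrains Wnt signalling, which keeps crypt cells dividing. Many of these genes are known targets of E2f transcription factors. In RNA of whole tissue, more cells that express a gene and more RNA per cell cannot be told apart.

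Since the genes moved together, the 250 bases before the transcription start are shown for 7 members from RefSeq (GRCm38.p6): the one with the largest small intestinal difference, among those with an entry, of the origin recognition subunits, the loading factors, the Mcm proteins, the Gins subunits, the polymerases, the clamp with its loader, and the chromatin and fork proteins. The firing factors, Rpa and the lagging-strand enzymes are not shown. Capitals mark matches to the E2F motif, searched as TTTCCCGC or TTTCGCGC or TTTGCCGC or TTTGGCGC on both strands, where overlapping matches were each counted.
Orc6, chr8:85299382-85299631, plus strand: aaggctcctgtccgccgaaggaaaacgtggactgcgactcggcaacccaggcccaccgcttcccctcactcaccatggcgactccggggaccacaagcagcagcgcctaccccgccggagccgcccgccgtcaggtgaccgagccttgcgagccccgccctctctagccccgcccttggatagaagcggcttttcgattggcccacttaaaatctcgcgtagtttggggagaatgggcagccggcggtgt
Cdt1, chr8:122567765-122568014, plus strand: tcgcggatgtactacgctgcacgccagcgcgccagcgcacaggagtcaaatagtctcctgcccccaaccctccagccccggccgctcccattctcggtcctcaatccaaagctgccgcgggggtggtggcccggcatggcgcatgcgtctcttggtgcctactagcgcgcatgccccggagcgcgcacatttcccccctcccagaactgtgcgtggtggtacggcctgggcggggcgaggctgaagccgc
Mcm6, chr1:128359706-128359955, minus strand: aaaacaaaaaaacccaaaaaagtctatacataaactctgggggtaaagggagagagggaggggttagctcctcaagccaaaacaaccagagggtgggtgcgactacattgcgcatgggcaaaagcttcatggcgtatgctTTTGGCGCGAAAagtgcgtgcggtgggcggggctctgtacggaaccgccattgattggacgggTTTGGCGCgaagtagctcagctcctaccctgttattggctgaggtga
Gins3, chr8:95633309-95633558, plus strand: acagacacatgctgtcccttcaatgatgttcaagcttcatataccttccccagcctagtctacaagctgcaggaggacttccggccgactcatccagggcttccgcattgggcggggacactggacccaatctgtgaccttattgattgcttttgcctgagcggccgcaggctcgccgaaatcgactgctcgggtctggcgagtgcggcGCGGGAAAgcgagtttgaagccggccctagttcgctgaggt
Pola1, chrX:93632156-93632405, minus strand: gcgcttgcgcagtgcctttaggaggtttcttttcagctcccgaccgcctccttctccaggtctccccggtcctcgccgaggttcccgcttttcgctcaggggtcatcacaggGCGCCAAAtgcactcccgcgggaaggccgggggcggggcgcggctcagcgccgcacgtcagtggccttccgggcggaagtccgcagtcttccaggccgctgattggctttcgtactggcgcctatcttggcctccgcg
Rfc4, chr16:23127731-23127980, minus strand: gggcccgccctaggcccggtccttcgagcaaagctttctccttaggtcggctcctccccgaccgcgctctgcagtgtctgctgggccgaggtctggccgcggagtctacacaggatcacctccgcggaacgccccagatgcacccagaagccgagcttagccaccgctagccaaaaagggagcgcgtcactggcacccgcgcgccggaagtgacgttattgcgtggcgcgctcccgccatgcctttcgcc
Timeless, chr10:128237816-128238065, plus strand: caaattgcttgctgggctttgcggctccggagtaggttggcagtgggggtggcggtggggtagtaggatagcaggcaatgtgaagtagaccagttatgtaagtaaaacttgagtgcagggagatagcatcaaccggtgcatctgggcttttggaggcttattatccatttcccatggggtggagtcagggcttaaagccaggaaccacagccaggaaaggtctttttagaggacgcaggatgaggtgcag
The starts of Timeless and Pola1 used here lie within the outer limits of those genes in RefSeq (128232063 to 128252941 and 93304766 to 93632387). Mcm6 held 3 E2F matches, 2 of them overlapping at 110 and 106 bases before the start and the third at 47 bases. Gins3 held 1 at 41 bases and Pola1 1 at 138 bases, and the other 4 windows held none of these letters. Entries were found for 36 of the 45 genes (43 promoters), and not for Gmnn, Mcm4, Gins1, Gins2, Gins4, Prim2, Pole, Rfc2 and Tipin. The motif was in 8 of these 43 promoters (18.6%), those of Cdc6, Gins3, Mcm5, Mcm6, Mcm7, Orc1, Pola1 and Rfc3, and in 611 of all 32851 promoters of the same length (1.86%). Among these 8 genes, Gins3 and Orc1 did not pass for the mean of days on their brightest probe sets (log2 differences of 0.19 and 0.01). The CCAAT box (CCAAT) was in 48.8% of the members' promoters and 33.8% of all. The other motifs differed less between members and all promoters: 6.98% and 6.02% for the E-box (CACGTG), 14.0% and 14.8% for a Tcf/Lef motif (CTTTG followed by AA or AT or TA or TT), and 18.6% and 17.1% for a CHR motif (TTTGAA or TTCGAA, the first of which can overlap a Tcf/Lef match). These matches describe letters in a window and are not evidence of binding.

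The deposited scores were turned back into a linear signal, each array was scaled so that its geometric mean was 100, and groups were compared as log2(signal + 16), so that log2 differences of dim genes are understated. Before scaling, the geometric mean signal ran from 69.6 to 176 over the 24 arrays, and precision is limited by having 3 arrays in each group. At day 5 this mean was 143 to 174 in wild-type and 90.7 to 111 in Apcfl/fl mice, without overlap, while the genotypes overlapped at days 3 and 4. The part of this gap in the day 5 differences was not tested. The 3'/5' signal ratio ran from 1.04 to 1.41 for Actb and from 0.745 to 1.29 for Gapdh. For Gapdh it was 0.906 to 1.29 in wild-type and 0.879 to 1.08 in Apcfl/fl mice at day 3. At day 4 it was 0.745 to 0.763 and 0.797 to 0.827, and at day 5 0.776 to 0.803 and 0.831 to 0.963. Normal colon gave 0.806 to 1.15 and polyps 0.771 to 0.796. The part of this ratio in the comparisons between days or groups was not tested. The labels give each array its own animal, other than the Apcfl/fl mice of day 4, which carry only a number, so p-values measure the spread between these samples. Epithelial genes were bright in all groups, with Epcam at 4158 to 9632, but not all were steady. For the mean of days Krt18 was higher by 1.38 on the log2 scale (adjusted p = 1.39e-06, limma) and Cdh1 by 0.46 (adjusted p = 0.00292). Vil1 was lower in polyps (-1.04, adjusted p = 0.0141), at 1131 to 1552 against 2372 to 2968 in normal colon. Epcam, Krt8, Krt19 and Cldn7 did not pass on any day, for the mean of days or in polyps. The brightest Apc probe set read 335 to 588 in wild-type and 341 to 628 in Apcfl/fl small intestine, and since the positions of its 4 probe sets against the floxed exons are not known here, they check nothing. Levels of different genes come from different probes and are not compared with each other.

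After loss of Apc, the replication genes rose together in the small intestine. Averaged over the 3 days, 40 of the 45 genes rose and 0 fell (limma with Benjamini-Hochberg adjustment over all probe sets, threshold 0.05), where 29.2% of all genes rose. Their median log2 difference was 1.02 and the median over all genes was 0.01. At day 3, 29 genes rose and 1, the flap endonuclease gene Fen1, fell, against 10.7% and 7.37% of all genes. At day 4, 35 rose and 0 fell (background 14.9%), and at day 5 again 35 rose and 0 fell (background 20.6%). The median log2 differences of the members on the 3 days were 0.92, 1.15 and 1.11. 26 genes rose on each of the 3 days, and 6 rose on none of them (Orc1, Mcm2, Cdc45, Gins3, Gins4 and Rfc2). Shares over all genes were not computed for these counts, so they are descriptive. Without reference to a test, every Apcfl/fl array lay above every wild-type array of its day for 33, 41 and 37 of the 45 genes, where 18.0%, 31.5% and 26.6% of all genes did so.

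**Figure D1:**
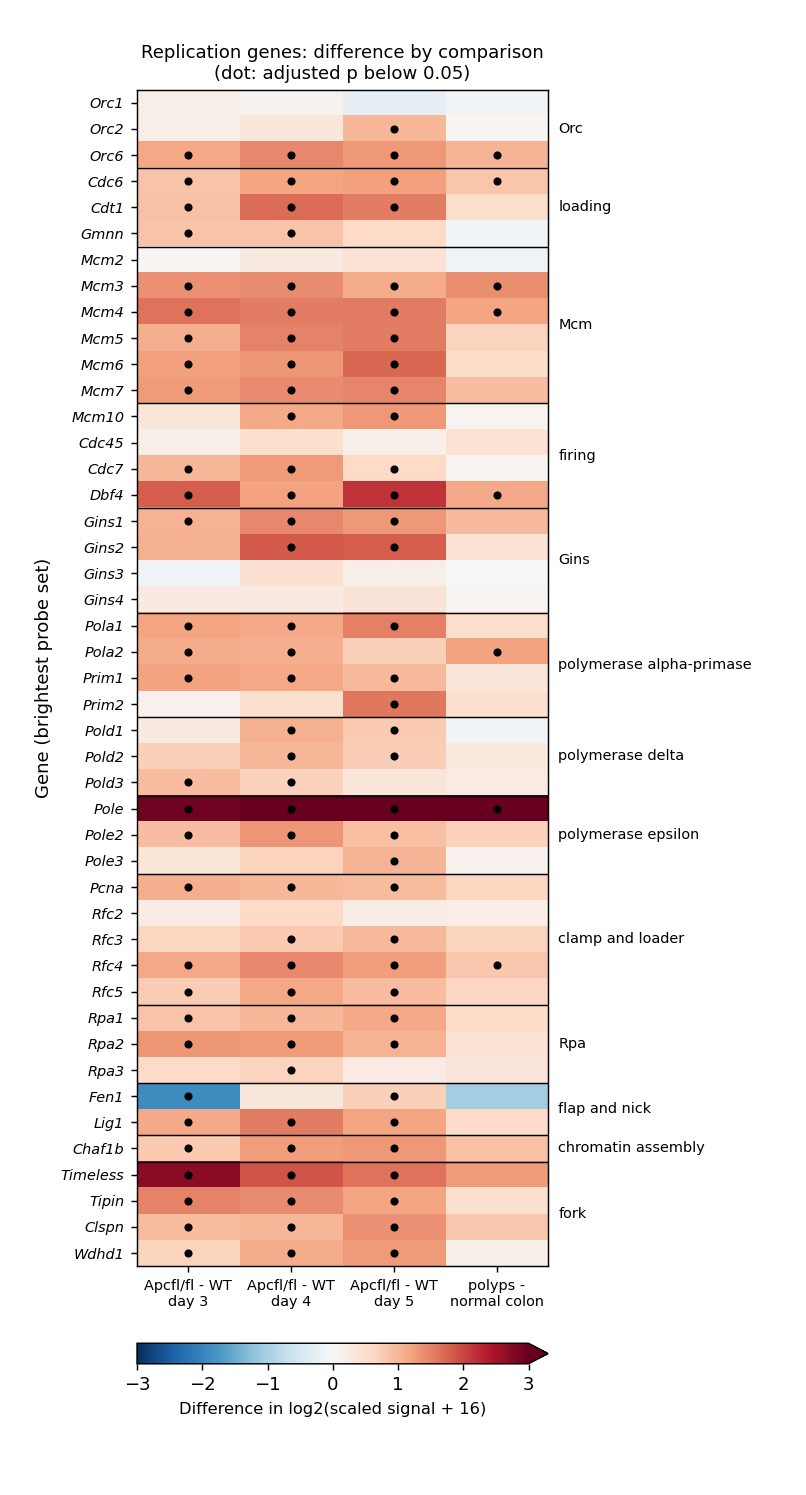
Rows are the 45 genes by complex, columns the differences on days 3, 4 and 5 (Apcfl/fl minus wild-type) and in polyps (minus normal colon), colour is the difference in log2(signal + 16), capped at 3, and a dot marks an adjusted p below 0.05. The 3 day columns hold 30, 35 and 35 dots and the polyp column 8, and the rows of Orc1, Mcm2, Cdc45, Gins3, Gins4 and Rfc2 hold none on any day.

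The mean log2 level over the 45 genes separated the genotypes on all 18 arrays. It was 7.80, 7.91 and 8.09 in wild-type mice at day 3, 8.04, 7.94 and 8.18 at day 4 and 8.05, 8.48 and 8.23 at day 5. In Apcfl/fl mice it was 8.59, 9.05 and 8.74 at day 3, 9.25, 9.05 and 9.21 at day 4 and 9.26, 9.29 and 9.45 at day 5. The highest wild-type array, replicate 2 of day 5, thus lay below the lowest Apcfl/fl array, replicate 1 of day 3. In the colon the mean was 8.07, 7.77 and 7.33 in normal mucosa and 8.25, 8.18 and 8.37 in polyps, with the lowest polyp array above the highest normal one and a wider spread in normal mucosa.

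**Figure D2:**
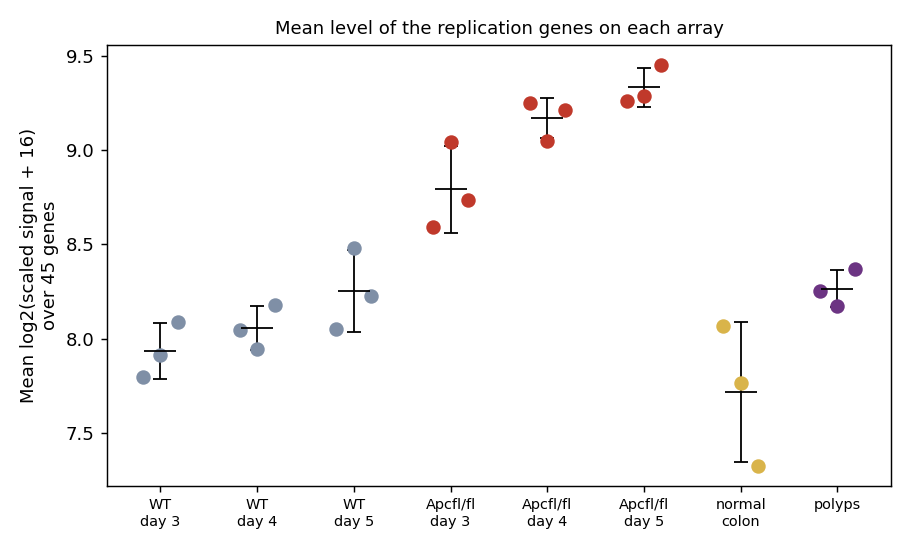
Each point is 1 array, placed by its group, and its height is the mean log2(signal + 16) over the 45 genes, with the bar at the mean of the 3 arrays of the group and error bars of 1 SD. The 9 Apcfl/fl arrays sit between 8.59 and 9.45, above the 9 wild-type arrays, which sit between 7.80 and 8.48.

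Of the origin recognition subunits among the members (Orc1, Orc2 and Orc6), Orc6 rose most and Orc1 did not pass the test on its brightest probe set. Orc6 read 106, 104 and 125 in wild-type mice at day 3, 142, 136 and 189 at day 4 and 165, 224 and 211 at day 5. Apcfl/fl arrays read 193, 378 and 268, then 501, 425 and 420, then 443.9, 544 and 566, with no overlap on any day. Averaged over the days Orc6 rose by 1.31 on the log2 scale (SE 0.13, adjusted p = 6.48e-07, limma). Orc1 ran from 103 to 199 over the 9 wild-type arrays and from 119 to 195 over the 9 Apcfl/fl arrays, and the ranges overlapped almost fully. Its log2 difference was 0.01 (SE 0.13, adjusted p = 0.942). Orc2 was higher at day 5 (1.00), with 0.17 and 0.34 at days 3 and 4, and at 0.50 for the mean of days its call was lost with quantile normalization (0.30). The other 2 sets of Orc2 passed on each of the 3 days, at 0.78, 0.68 and 1.08 and at 0.57, 0.71 and 1.44, with means of 0.85 and 0.91.

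All 3 genes grouped under loading rose: the loading factor genes Cdc6 and Cdt1, and the inhibitor gene Gmnn. Cdt1, which brings Mcm2-7 to the origin, read 529, 917 and 817 in wild-type mice at day 3, 668, 466 and 529 at day 4 and 645, 1085 and 774 at day 5. After Apc loss it read 1051, 1816 and 1304, then 1625, 1797 and 1934, then 2485, 2219 and 2445. The groups did not overlap on any day, and the mean log2 difference was 1.36 (SE 0.14, adjusted p = 1.23e-06, limma). Gmnn encodes geminin, which binds Cdt1 and stops a second round of licensing. It read 389, 345 and 496, then 518, 438 and 585, then 544, 513 and 558 in wild-type mice, and 689, 853 and 697, then 995, 806 and 1038, then 559, 1141 and 871 in Apcfl/fl mice. At day 5 replicate 1 of Apcfl/fl lay just above the highest wild-type array, and the day 5 difference of 0.60 did not pass the test (adjusted p = 0.0614), while the mean of days did (0.77, SE 0.14, adjusted p = 0.000151). Cdc6, the ATPase that works with Cdt1, rose by 0.86, 1.17 and 1.22 on the 3 days.

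The helicase subunits rose as a block, except the brightest Mcm2 probe set. Mcm4 read 278, 130 and 351 in wild-type mice at day 3, 334, 321 and 407 at day 4 and 365, 535 and 436 at day 5. The Apcfl/fl values were 599, 989 and 737, then 1085, 1020 and 1067, then 1401, 1354 and 1257. No arrays overlapped between genotypes on any day, and the mean log2 difference was 1.58 (SE 0.16, adjusted p = 6.94e-07, limma), a 2.99-fold rise. Mcm3, Mcm5, Mcm6 and Mcm7 rose by 1.30, 1.38, 1.43 and 1.39 with SEs of 0.13 to 0.16, values close to that of Mcm4. Mcm6, for example, ran from 406 to 817 with a median of 622 over the wild-type arrays and from 988 to 2504 with a median of 1549 over the Apcfl/fl arrays.

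Mcm2 was the exception that depended on which probe set was read. Its brightest set read 689, 1135 and 692, then 418, 670 and 581, then 821, 646 and 785 in wild-type mice and 1043, 858 and 669, then 687, 484 and 887, then 1011, 820 and 1263 in Apcfl/fl mice. The groups overlapped on each day, and the mean log2 difference was 0.25 (SE 0.16, adjusted p = 0.184, limma). The other set of Mcm2 read 271, 273 and 330.7, then 379, 326 and 446, then 418, 568 and 439 in wild-type mice and 637, 995 and 831, then 1258, 1049 and 1123, then 1406, 1249 and 1470 in Apcfl/fl mice. There the genotypes did not overlap on any day, and the difference was 1.49 (adjusted p = 6.71e-08), close to those of the other 5 subunits. The brightest set carries the suffix s and that of Fen1, described further on, the suffix x, which Affymetrix gives to sets whose probes can match more than 1 transcript. The brightest sets of Mcm3, Mcm5, Mcm7 and Gins2 carry such a suffix too, and those rose, by 1.30, 1.38, 1.39 and 1.57.

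Of the firing factors, Dbf4 showed the largest rise. Dbf4 read 153, 62.0 and 197 in wild-type mice at day 3, 276, 259 and 352 at day 4 and 198, 259 and 314 at day 5. Apcfl/fl mice gave 448, 708 and 356, then 774, 669 and 657, then 1326, 1179 and 1068. The groups were apart on each day and the mean log2 difference was 1.73 (SE 0.18, adjusted p = 8.82e-07, limma). Its catalytic partner Cdc7 rose by 0.96, from a wild-type median of 114 (range 68.6 to 138) to 209 (158 to 308). Mcm10, which helps to start the helicase, rose by 0.93 over the days, with 0.36 at day 3, which did not pass (adjusted p = 0.301), and 1.15 and 1.29 at days 4 and 5.

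Cdc45 joins the helicase at firing and was the least changed of this group. It read 123, 136 and 117, then 152, 121 and 128, then 123, 213 and 140 in wild-type mice, and 124, 174 and 135, then 184, 197 and 203, then 194, 122 and 221 in Apcfl/fl mice. The genotypes were apart at day 4 only, and the log2 difference of 0.27 (SE 0.13) did not pass the test (adjusted p = 0.0934, limma). The second Cdc45 probe set did not pass either.

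The 4 Gins subunits split. Gins2 read 73.1, 180 and 196, then 150, 108 and 110, then 37.0, 173 and 198 in wild-type mice and 286, 372 and 273, then 500, 448 and 475, then 322, 457 and 570 in Apcfl/fl mice. All Apcfl/fl arrays were above all wild-type arrays, and the mean log2 difference was 1.57 (SE 0.23, adjusted p = 3.19e-05, limma), although at day 3 it did not pass (1.06, adjusted p = 0.0783). Gins1 rose by 1.27 (SE 0.14), and Gins4 by 0.32 (SE 0.13, adjusted p = 0.0443), a call that was lost under 3 other settings of the processing and when any 1 of 13 arrays was left out. Gins3 read 72.7, 99.4 and 76.0, then 54.8, 76.7 and 87.8, then 76.9, 126 and 74.8 in wild-type mice, and 60.9, 69.8 and 106, then 98.2, 116 and 103, then 107, 85.1 and 124 in Apcfl/fl mice. Its groups were apart at day 4 only, and neither of its probe sets passed (0.19 and 0.18 for the mean of days).

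Polymerase alpha and primase, which lay down the RNA-DNA primers, rose in all 4 subunits. The catalytic gene Pola1 read 146, 70.0 and 122, then 141, 132 and 153, then 153, 233 and 134 in wild-type mice and 260, 343 and 205, then 342, 307 and 343, then 558, 353 and 675 in Apcfl/fl mice. The genotypes did not overlap on any day, and the difference was 1.27 (SE 0.16, adjusted p = 5.14e-06, limma). Prim1, the catalytic primase, rose by 1.11, from a median of 365 (294 to 575) to 832 (719 to 1129), and Pola2 by 0.96. For Pola2 the genotypes overlapped at day 3, and the day 5 difference of 0.70 did not pass (adjusted p = 0.091, limma). Its other set, dim at a mean signal of 31.9, was at -0.16 and -0.20 at days 3 and 4, and neither passed.

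For Prim2, the large primase subunit, the days differed on the brightest probe set. This set read 167, 228 and 144, then 174, 177 and 224, then 149, 176 and 120 in wild-type mice, and 179, 249 and 164, then 256, 233 and 343, then 461, 452 and 503 in Apcfl/fl mice. The groups overlapped at day 3, were narrowly apart at day 4, and were far apart at day 5. The log2 differences were 0.13, 0.49 and 1.58, and only the last passed the test (adjusted p = 9.6e-05, limma). The other set of Prim2 read 90.3, 115 and 144, then 128, 98.3 and 114, then 73.1, 142 and 135 in wild-type mice, and 160, 250 and 182, then 251, 229 and 208, then 270, 293 and 313 in Apcfl/fl mice. On it the genotypes were apart on each day, with differences of 0.69 (adjusted p = 0.0525), 0.93 (adjusted p = 0.0105) and 1.26 (adjusted p = 0.000805).

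Polymerase delta, which extends the lagging strand, rose by 0.71 (Pold1, the catalytic subunit), 0.82 (Pold2) and 0.66 (Pold3). Pold2 read 337, 547 and 502, then 500, 444.4 and 552, then 419, 779 and 707 in wild-type mice and 560, 1090 and 697, then 1016, 901 and 1122, then 847, 1185 and 1096 in Apcfl/fl mice, with no overlap on any day. Pold3 read 207, 164 and 278, then 215, 207 and 230, then 274, 339 and 263 in wild-type mice and 403, 435 and 411, then 502, 303 and 305, then 403, 280 and 475 in Apcfl/fl mice. Its genotypes overlapped at day 5, where its difference of 0.36 did not pass (adjusted p = 0.268, limma). The other sets of Pold3 differed from this and from each other. One rose most at day 5, with 0.77 (adjusted p = 0.199), 1.66 and 2.46 (adjusted p = 0.000308) on the 3 days, and read 6.99, 64.6 and 23.6 in wild-type and 226, 240 and 181 in Apcfl/fl mice at day 5. On the last set the values were 0.48, 0.73 and 0.16, of which only that of day 4 passed (adjusted p = 0.0436). Pold1 ran from 151 to 240 in wild-type and from 194 to 391 in Apcfl/fl mice, with medians of 178 and 340.

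The largest difference of all 45 genes was that of Pole, the catalytic subunit of polymerase epsilon, which copies the leading strand. It read 12.4, 5.62 and 10.3 in wild-type mice at day 3, 14.6, 9.92 and 8.64 at day 4 and 14.1, 72.8 and 14.9 at day 5. In Apcfl/fl mice it read 148, 202 and 183, then 430, 312 and 400, then 571, 358 and 499. 8 of the 9 wild-type arrays were under 15, the exception being replicate 2 of day 5, and the lowest Apcfl/fl array was at 148. The log2 differences were 2.93, 3.87 and 3.47 on the 3 days and 3.42 for their mean (SE 0.18, adjusted p = 1.98e-09, limma). Pole has 1 probe set, and because its control values lie near the offset of 16 the size depends on it: the mean difference was 4.44 with an offset of 1 and 2.26 with an offset of 64. The accessory subunits rose less. Pole2 rose by 1.05, and Pole3 by 0.69 (SE 0.15), from 266, 443.5 and 553, then 433, 302 and 431, then 355, 500 and 313 in wild-type mice to 515, 454 and 626, then 631, 611 and 607, then 654, 942 and 804 in Apcfl/fl mice. For Pole3 the genotypes overlapped at day 3 and were apart at days 4 and 5, and only day 5 passed, at 1.02 (0.37 and 0.66 at days 3 and 4). A dimmer set of Pole3 gave the opposite order of days, 1.61, 1.00 and 0.25, of which the first 2 passed, and the remaining set was at -0.47, -0.18 and -0.11, none of which passed.

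**Figure D3:**
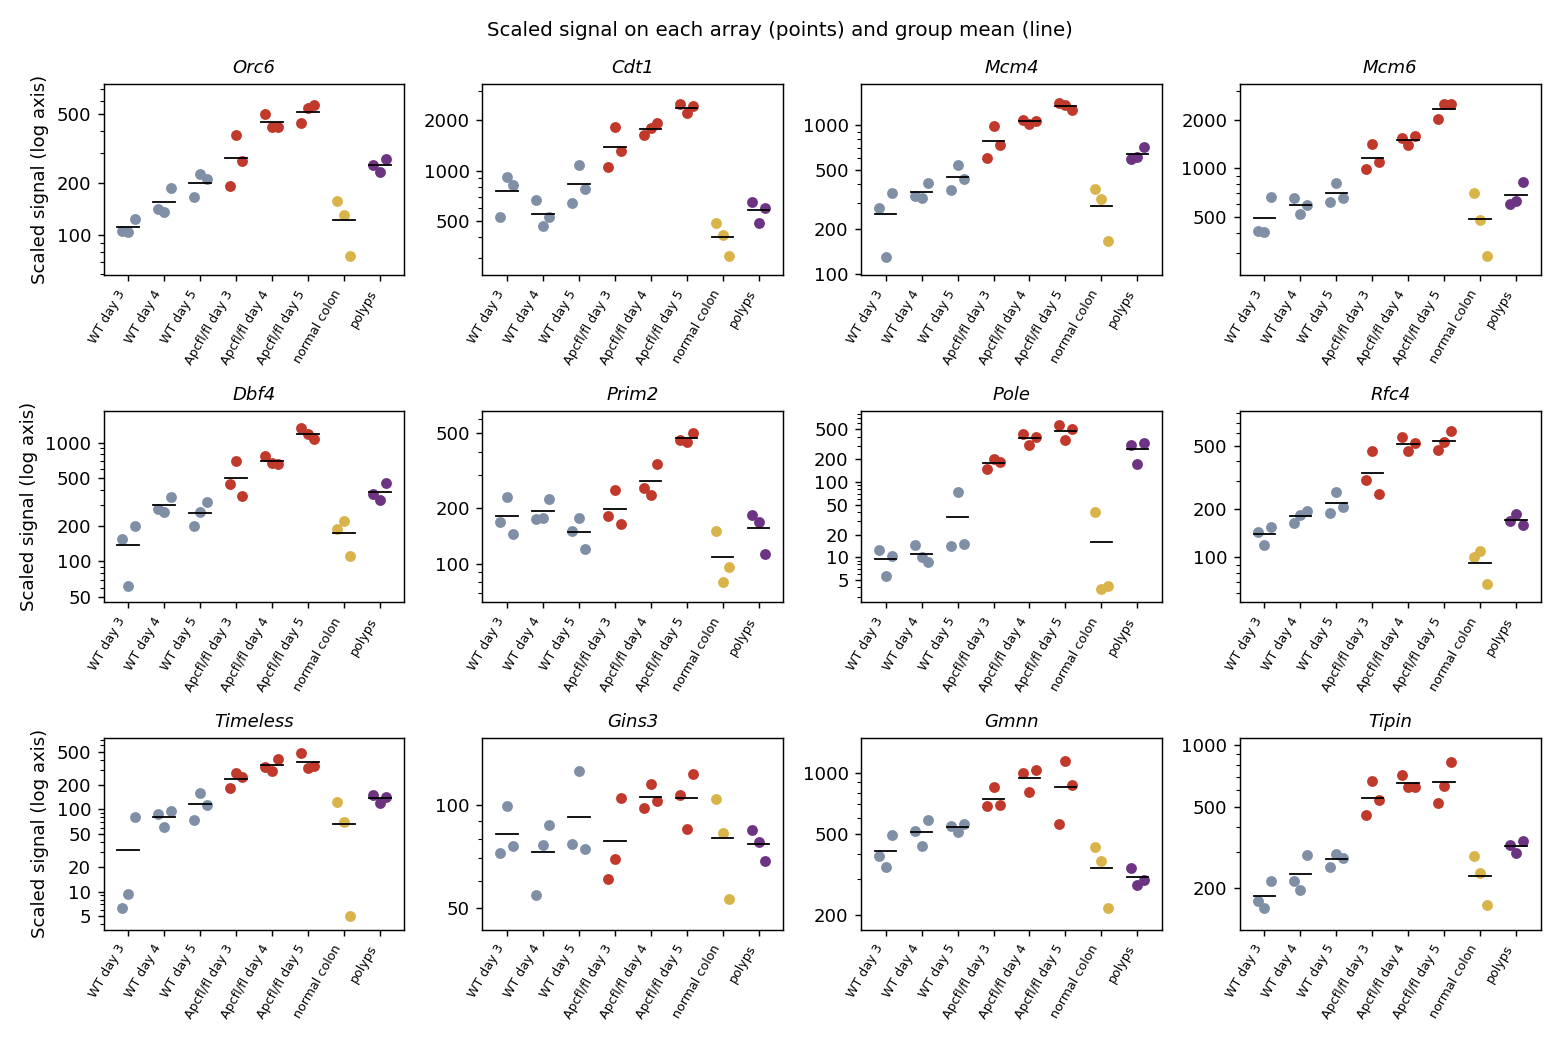
Each panel is 1 of 12 genes, with the signal of each of the 24 arrays on a log axis by group and a line at the mean of the 3 arrays. Pole shows the widest gap, with 8 of 9 wild-type arrays under 15 and the Apcfl/fl arrays at 148 or above, while Gins3 and the day 3 arrays of Prim2 overlap between genotypes.

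Pcna, the sliding clamp, and Rfc2 to Rfc5, 4 subunits of its loader, all rose for the mean of days. Pcna rose by 1.01, from a median of 2157 (1626 to 2850) to 4848 (3171 to 5671). Rfc4 read 143, 120 and 154, then 163, 183 and 195, then 190, 258 and 206 in wild-type mice and 306, 462 and 251, then 565, 467 and 521, then 473, 527 and 620 in Apcfl/fl mice. These groups were apart on each day, and the log2 difference was 1.28 (SE 0.13, adjusted p = 5.43e-07, limma). Rfc2 read 490, 749 and 626, then 487, 443.5 and 508, then 504, 618 and 552 in wild-type mice and 604, 812 and 765, then 913, 570 and 769, then 559, 672 and 744 in Apcfl/fl mice, and overlapped at days 3 and 5. Its difference of 0.35 (SE 0.12, adjusted p = 0.0246) did not pass with quantile normalization (0.10), with the authors' standardized values (0.14), or without replicate 1 of Apcfl/fl day 4 or replicate 1 of wild-type day 3 (0.30 in both). Rfc3 and Rfc5 rose by 0.80 and 0.95.

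The single-strand binding protein rose in its 3 subunits. Rpa2 read 121, 128 and 177, then 202, 135 and 199, then 216, 297 and 205 in wild-type mice and 323.03, 435 and 371, then 447, 451 and 448, then 366, 685 and 507 in Apcfl/fl mice, apart on every day, with a mean log2 difference of 1.21 (SE 0.14, adjusted p = 2.18e-06, limma). Rpa1 rose by 0.99. Rpa3, the smallest subunit, read 370, 327 and 383, then 410, 449 and 505, then 330, 461 and 401 in wild-type mice and 512, 667 and 459, then 790, 637 and 768, then 342, 620 and 490 in Apcfl/fl mice. It overlapped between genotypes at day 5, through replicate 1 of Apcfl/fl, and its mean difference of 0.49 (SE 0.13, adjusted p = 0.004) did not pass with quantile normalization (0.24).

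Of the enzymes that finish the lagging strand, the DNA ligase gene Lig1 rose and Fen1, which cuts the displaced flap, was the only one of the 45 genes called lower on any day. Lig1 read 398, 304 and 447, then 410, 289 and 353, then 342, 569 and 461 in wild-type mice and 624, 1002 and 967, then 1091, 911 and 1144, then 937, 1115 and 1056 in Apcfl/fl mice, apart on each day, with a mean log2 difference of 1.28 (SE 0.14, adjusted p = 1.12e-06, limma). The brightest set of Fen1 read 3177, 5526 and 5635 in wild-type mice at day 3, 789, 682 and 1061 at day 4 and 839, 788 and 731 at day 5, and in Apcfl/fl mice 1029, 1621 and 1153, then 1060, 774 and 1437, then 1289, 1267 and 1359. The 3 wild-type arrays of day 3 thus stood far above the other 15 small intestinal arrays. The differences were -1.88 at day 3 (adjusted p = 0.00032), 0.34 at day 4 and 0.72 at day 5 (adjusted p = 0.0457).

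The other probe set of Fen1 did not show this. It read 191, 342 and 380, then 368, 277 and 523, then 374, 524 and 355 in wild-type mice and 447, 794 and 490, then 949, 849 and 838, then 814, 914 and 976 in Apcfl/fl mice. Here the genotypes were apart on every day in the same direction as the other members, and the log2 differences were 0.90, 1.19 and 1.10, all past the threshold. Which of the 2 sets follows Fen1 RNA was not tested.

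**Figure D4:**
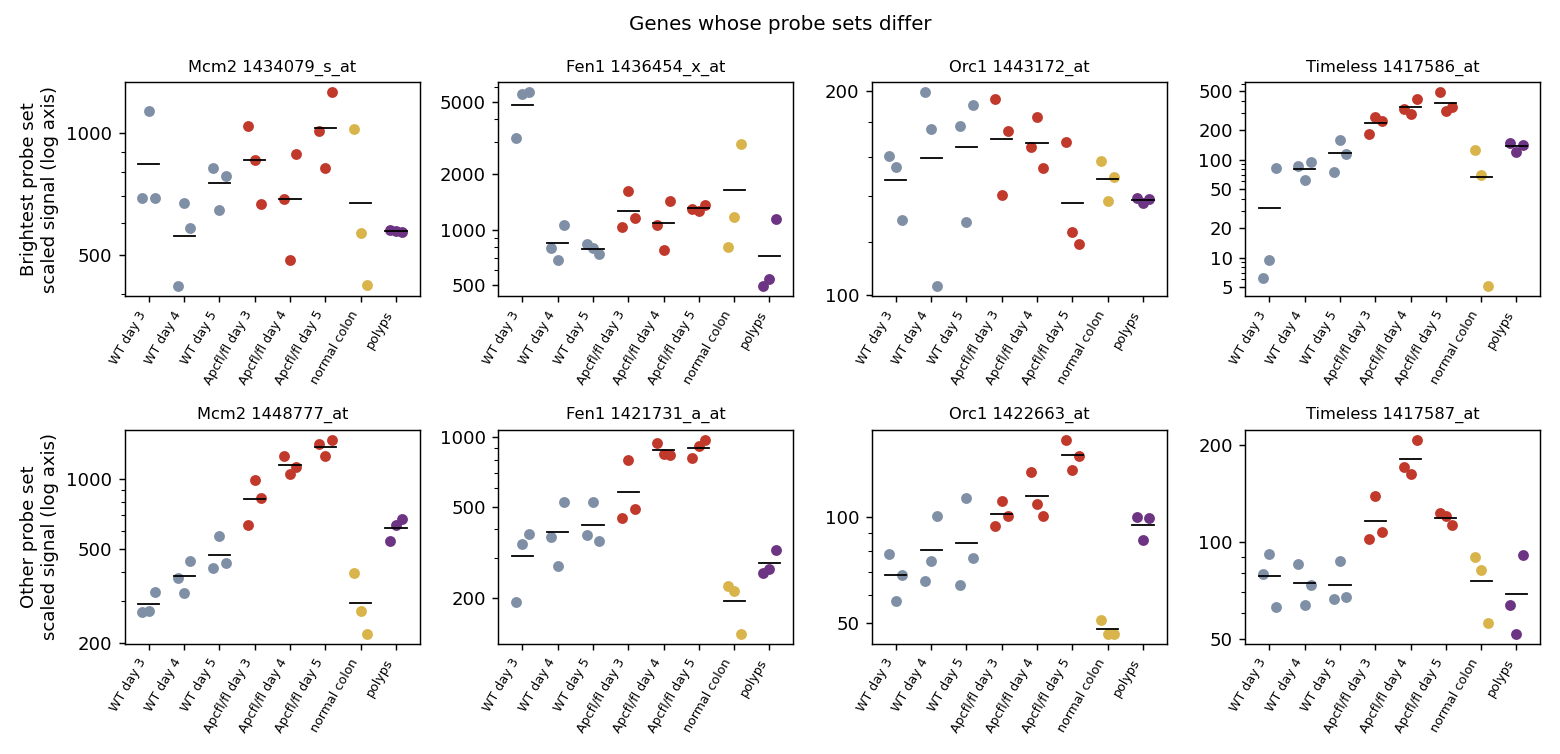
For Mcm2, Fen1, Orc1 and Timeless, the signal of each array by group on a log axis, for the brightest probe set (upper row) and for the other set of the gene (lower row), with a line at the mean of the 3 arrays. For Fen1 the 3 wild-type arrays of day 3 read 3177 to 5635 on the brightest set and 191 to 380 on the other.

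Chaf1b, a subunit of the factor that places histones on new DNA, read 96.6, 129 and 129, then 90.4, 78.2 and 117, then 131.5, 156 and 150 in wild-type mice. In Apcfl/fl mice it read 171, 283 and 205, then 308, 202 and 245, then 336, 428 and 391, apart on each day, and it rose by 1.12 (SE 0.13, adjusted p = 2.15e-06, limma). Its second probe set was dim, with a mean signal of 39.9 against 186 for the brightest. For the mean of days this second set was lower by 0.33 on the log2 scale (adjusted p = 0.0256), so that the sets of Chaf1b went opposite ways. It was the only 1 of the 89 sets to be called lower for the mean of days, and on no single day did it pass (-0.46, -0.37 and -0.16).

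The 4 fork proteins rose on all 3 days. Timeless, which with Tipin holds helicase and polymerase together, read 6.25, 9.44 and 81.5 in wild-type mice at day 3, 86.9, 62.0 and 94.7 at day 4 and 74.9, 160 and 114 at day 5. In Apcfl/fl mice it read 182, 275 and 250, then 329, 292 and 415, then 491, 316 and 342. No arrays overlapped within a day, and 2 wild-type arrays of day 3 were near the floor. The log2 difference was 2.07 (SE 0.23, adjusted p = 1.82e-06, limma), and 0.74 on its other probe set (adjusted p = 3.74e-05), so that the size, not the direction, depended on the set. Tipin rose by 1.37, from a median of 218 (161 to 296) to 620 (454 to 827), and Clspn, encoding the checkpoint adaptor claspin, by 1.10. Wdhd1, which ties polymerase alpha to the helicase, read 179, 191 and 124, then 166, 161 and 199, then 155, 221 and 188 in wild-type mice and 251, 296 and 257, then 452, 376 and 359, then 586, 387 and 468 in Apcfl/fl mice, apart on each day, and rose by 1.02 (SE 0.12, adjusted p = 3.73e-06).

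Read over any of a gene's probe sets, 43 of the 45 genes had a set that rose for the mean of days, all but Cdc45 and Gins3, where 34.0% of all genes had such a set. Over the 89 sets, 69 rose, 1 fell and 19 did not pass. Of the 27 genes that rose and have further sets, 12 had a set that did not rise: Cdc7, Chaf1b, Clspn, Dbf4, Mcm3, Mcm5, Mcm6, Mcm10, Pola2, Pole2, Pole3 and Rfc2. These sets were dim, with mean signals of 7.78 to 92.8. On days 3, 4 and 5 there were 12 such genes of 19, 11 of 23 and 11 of 25. The other set of Orc1 ran from 57.9 to 78.3 at day 3, from 66.0 to 100 at day 4 and from 64.2 to 113 at day 5 in wild-type mice. With Apc deleted it ran from 93.8 to 110, from 100 to 133 and from 135 to 165, and it rose by 0.56 (adjusted p = 0.000988, limma). These counts choose the best of several sets, which raises the chance of a call for genes with many sets.

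The days were then compared. In both genotypes the labels of the animals differ in form between the days. What this stands for is not given, and it cannot be told apart from day. The Apc effect differed between day 4 and day 3 for 1 gene, the brightest set of Fen1 (interaction 2.22, SE 0.37, adjusted p = 0.0422, limma), where 0.0194% of all genes were higher in this test. Between day 5 and day 4 it differed for 0 genes, where 0.0194% of all genes were higher, and 3 members had an unadjusted p under 0.05. Between day 5 and day 3 it differed for Prim2 (1.45, SE 0.32, adjusted p = 0.0404) and Fen1 (2.60, SE 0.37, adjusted p = 0.00502), against a background of 0.609%. The Fen1 values rest on the wild-type arrays of day 3 and were 0.29 and 0.20 on the other probe set, where neither passed. The Fen1 call between days 4 and 3 was lost when any 1 of 14 arrays was left out (values of 2.01 to 2.40), and that of Prim2 without any 1 of 12 (1.28 to 1.57), and each was also lost under 5 other settings. The other set of Prim2 gave 0.57 (SE 0.33, adjusted p = 0.418). For the remaining 43 genes the size of the Apc effect was not shown to differ between days.

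Within Apcfl/fl mice, 14 genes were higher at day 5 than at day 3 and 0 were lower, where 8.28% of all genes were higher: Orc6, Cdc6, Cdt1, Mcm6, Mcm7, Dbf4, Pola1, Prim2, Pole, Rfc3, Rfc4, Chaf1b, Clspn and Wdhd1. Pole rose by 1.33, Dbf4 by 1.27, Prim2 by 1.21, Clspn by 1.10 and Cdc6 by 1.04, and for 24 of the 45 genes every array of day 5 was above every array of day 3, where 17.9% of all genes were so. The count fell to 4 without replicate 3 of Apcfl/fl day 3, to 5 without replicate 1 of that group, and to 6 and 8 without replicates 1 and 3 of Apcfl/fl day 5.

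The wild-type mice also differed between days, in fewer genes and with the same limit on what day stands for. Dbf4 and Pola2 were higher at day 4 than at day 3 (1.13 and 1.09, adjusted p = 0.04 and 0.0456, limma, background 1.27%) and Fen1 lower on its brightest set (background 2.15%). Between days 5 and 4 the count was 0 (3 at an unadjusted p under 0.05), where 0.0519% of all genes were higher. At day 5 against day 3, Mcm3, Pola2 and Timeless were higher, by 0.87, 1.31 and 1.74 (background 0.869%), and Fen1 was lower (background 2.06%). Timeless read 6.25 and 9.44, near the floor, and 81.5 at day 3, and 74.9, 160 and 114 at day 5, so these overlapped. On the other probe set of Timeless day 3 read 79.4, 91.8 and 63.0 and day 5 read 66.5, 86.9 and 67.6. For 16 genes every wild-type array of day 5 lay above every array of day 3 (8.47% of all genes), and for Fen1 and Mcm10 every one lay below (11.1%). Pola2 read 42.4, 84.9 and 111 in wild-type mice at day 3, 166, 186 and 182 at day 4 and 204, 251 and 179 at day 5, so that day 3 lay below the later days. These counts are small and ran from 1 to 4 and from 1 to 6 when single arrays were left out.

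In polyps of the colon, 8 of the 45 genes rose against normal colon and 0 fell, where 7.55% of all genes rose: Orc6, Cdc6, Mcm3, Mcm4, Dbf4, Pola2, Pole and Rfc4. The median log2 difference over the members was 0.52, and over all genes -0.01. 39 of the 45 had a positive difference, and for 20 every polyp array was above every normal array (18.8% of all genes). The count of 8 was 3 without replicate 1 of the polyps or replicate 3 of normal colon, 4 without replicate 2 or 3 of the polyps or replicate 2 of normal colon, and 12 without replicate 1 of normal colon. It was 23 with array weights (22 higher, 1 lower) and 15 in a fit of all 24 arrays (14 higher, 1 lower). The label of replicate 1 of normal colon starts differently from those of the other colonic arrays, and what this stands for is not given. Before scaling that array had the lowest geometric mean signal, 69.6. Pola2 and Pole passed in every setting tried.

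Pole again had the largest difference. It read 39.6, 3.79 and 4.11 in normal colon and 310, 173 and 328 in polyps, apart, with replicate 1 of normal colon above the other 2. The log2 difference was 3.30 (SE 0.41, adjusted p = 0.000696, limma), 4.71 with an offset of 1 and 2.06 with an offset of 64. Mcm3 read 357, 263 and 187 in normal colon and 682, 746 and 707 in polyps (1.39, SE 0.26, adjusted p = 0.00618). Pola2, whose product anchors polymerase alpha, read 62.6, 80.4 and 54.6 in normal colon and 173, 172 and 171 in polyps (1.21, SE 0.22, adjusted p = 0.00543). In all 3 genes the groups were well apart and the polyp arrays were close to one another, except for Pole.

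Mcm4 read 373, 317 and 166 in normal colon and 587, 608 and 715 in polyps (1.18, SE 0.30, adjusted p = 0.0259, limma). Dbf4 read 189, 219 and 110 and then 370, 330 and 461 (1.13), and Orc6 158, 130 and 76.3 and then 255, 232 and 274 (1.01). Cdc6 and Rfc4 rose by 0.84 and 0.81. In all 5 genes the lowest polyp array lay above the highest normal one. In Mcm4, Dbf4, Orc6, Cdc6 and Rfc4 replicate 3 of normal colon was the lowest of the 6 arrays.

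Most other members had positive differences that did not pass. Gins1 was at 0.98 (adjusted p = 0.0611), Mcm7 at 0.94 (adjusted p = 0.0821) and Chaf1b at 0.87 (adjusted p = 0.0575). 6 members had a negative value. Gins3, the least different, read 104, 83.1 and 53.2 in normal colon and 85.0, 78.0 and 68.6 in polyps (-0.01, 95% interval -0.58 to 0.55).

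Gmnn read 429, 369 and 216 in normal colon and 339, 281 and 296 in polyps (-0.09, 95% interval -0.71 to 0.52), and Pold1 183, 155 and 147 and then 148, 138 and 168 (-0.08, -0.56 to 0.40). The brightest sets of Orc1 and Mcm2 read 158, 138 and 150 and 1021, 567 and 420 in normal colon, and 139, 137 and 138 and 577, 573 and 568 in polyps. That of Fen1 read 807, 1166 and 2934 and then 491, 535 and 1138 (-1.05, SE 0.47, adjusted p = 0.165). These 5 overlapped between groups, so that no fall was shown. The other sets of Mcm2 and Orc1 rose in polyps (1.05, adjusted p = 0.0232, and 0.79, adjusted p = 0.0315), as did 1 further set each of Mcm7 and Rfc3, and over any set 12 genes rose, where 11.2% of all genes had such a set. Conversely, 5 of the 8 genes that rose have further sets, and each of these, Mcm3, Mcm4, Dbf4, Pola2 and Rfc4, had 1 or more that did not pass, such as the second sets of Mcm4 (0.78, adjusted p = 0.123) and Rfc4 (0.26, adjusted p = 0.579).

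The small intestinal and colonic differences were compared in 1 fit over the 24 arrays. The difference in polyps was below that of the mean of days in 42 of the 45 genes, with a median of -0.44 where that of all genes was -0.09. In 8 genes it was lower past the threshold, where 10.7% of all genes were: Cdt1 (-0.83, SE 0.29, adjusted p = 0.0499), Gmnn (-0.86), Mcm6 (-0.88), Mcm10 (-0.84), Prim1 (-0.75), Pold1 (-0.79, adjusted p = 0.0167), Tipin (-0.88) and Wdhd1 (-0.87). In normal colon and polyps, Cdt1 read 488, 411 and 310 and then 653, 489 and 599, and Mcm6 701, 478 and 286 and then 599, 628 and 824. Both rose after loss of Apc in the small intestine and did not pass in polyps.

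Mcm10 read 277, 216 and 204 in normal colon and 247, 259 and 232 in polyps, and Prim1 352, 290 and 209 and then 309, 327 and 469. Tipin read 288, 237 and 166 and then 325, 299 and 341, and Wdhd1 267, 147 and 183 and then 202, 214 and 233. Of these 4 only Tipin was apart between the colonic groups. The count of 8 was 0 without replicate 2 of the polyps or replicate 1 of normal colon, 14 without replicate 3 of normal colon, 1 with quantile normalization or the authors' standardized values, and 4 with an offset of 1. Tissue, polyp stage and the way Apc was lost differ together between the 2 comparisons and cannot be told apart.

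**Figure D5:**
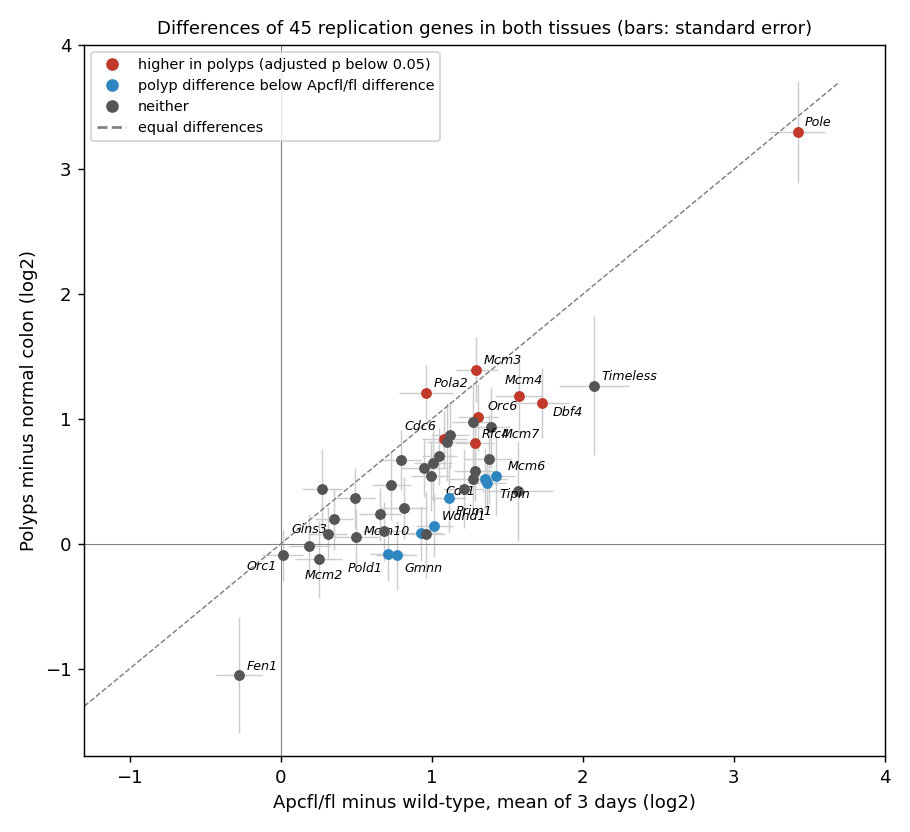
Each point is 1 of the 45 genes, with its log2 difference for the mean of days (Apcfl/fl minus wild-type, 9 arrays each) on the x axis and for polyps (minus normal colon, 3 arrays each) on the y axis, bars of 1 SE and a dashed line of equal differences, red for genes that rose in polyps and blue for those whose polyp difference was lower past the threshold. Most points lie to the right of 0 and below the line, Pole stands alone at 3.42 and 3.30, and Fen1 is below 0 on both axes.

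Smooth muscle genes moved with the colonic groups. Their mean log2 level (5 genes) was 10.50, 10.85 and 11.32 in normal colon and 6.97, 6.89 and 7.60 in polyps, and all 5 fell. The 6 colonocyte genes and the 6 goblet cell genes fell in polyps as well, and 4 of 6 stem cell genes rose. 3 of 5 enteroendocrine, 2 of 9 enterocyte and 3 of 7 lymphocyte genes fell too, the last being the B cell genes Cd79a (-2.11), Cd79b (-1.75) and Ms4a1 (-1.60). Of 4 Paneth cell genes Mmp7 (4.64) and Itln1 (3.39) rose and Ang4 (-1.67) fell, of 5 myeloid genes Itgam (1.10) and Lyz2 (1.08) rose, and of 5 fibroblast genes Col1a1 (1.89) rose and Lum (-1.34) fell. Of all genes 7.55% rose in polyps, and the share that fell is not given here, so the counts of genes that fell are descriptive. In normal colon the order of the arrays by smooth muscle level was the reverse of that by the members' mean level, replicate 3 having the most of the one and the least of the other. The part of tissue makeup in the polyp values was not tested.

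In the small intestine the smooth muscle level ran from 7.16 to 10.01 in wild-type and from 6.86 to 10.14 in Apcfl/fl mice, and 0 of 5 genes passed for the mean of days. The 6 stem cell genes rose on each day, with group means of 8.35 to 8.68 in wild-type and 10.2 to 10.4 in Apcfl/fl mice. 6 of 9 enterocyte genes, 5 of 6 goblet cell genes and 5 of 7 lymphocyte genes were lower at day 5, and 4 of 4 Paneth cell genes were higher. Of all genes 20.6% were higher at day 5, and the share that was lower is not given here, so the counts of lower genes are descriptive. At day 3 the 6 stem cell genes and 3 of 11 mitosis genes were higher, and 2 of 5 myeloid genes, Csf1r (-0.89) and Adgre1 (-0.89), and 1 of 5 enteroendocrine genes, Gcg (-1.40), were lower. Of all genes 10.7% were higher and 7.37% lower at day 3. None of the 9 enterocyte, 6 goblet cell and 7 lymphocyte genes passed at day 3, with 0, 1 and 2 of them lower at an unadjusted p under 0.05. The spread of the log values across all probe sets was also wider in Apcfl/fl than in wild-type arrays at days 4 and 5 (SD of 2.22 to 2.38 against 1.96 to 2.18), and the part of either in the members' differences was not tested.

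Between the normal tissues, 12 members were higher in wild-type small intestine than in normal colon and 0 were lower, where 11.3% of all genes were higher: Cdc6, Cdt1, Mcm3, Mcm5, Mcm10, Cdc45, Pola2, Prim2, Pold2, Rfc4, Rfc5 and Rpa2. Pola2 had the largest value (0.96, SE 0.23, adjusted p = 0.0043, limma). The count was 3 without replicate 3 of normal colon, 7 without replicate 2 and 16 without replicate 1. Cre induction, the injected agent and the ApcMin allele differ between these mice along with the tissue, and cannot be told apart from it.

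Most genes of the neighbouring replication lists rose in the small intestine as well, where 29.2% of all genes rose for the mean of days. For the mean of days 8 of 9 other subunits and related genes rose and 0 fell (Orc3, Orc4, Orc5, Pold4, Pole4, Rfc1, Mcm8 and Mcm9, which form a helicase of their own, and the Mcm-binding gene Mcmbp), with Orc5 at 1.59 and Rfc1, the large subunit of the clamp loader, at 1.55. Pold4 was at -0.25 and did not pass (adjusted p = 0.126, limma). 18 of 21 further start, fork and repair factors rose, among them Topbp1, which helps to load Cdc45, at 1.76, Rnaseh2a, which removes RNA primers, at 1.17 and Top2a, which untangles copied DNA, at 1.38. Ticrr, Donson and Asf1b did not pass. In the supply of nucleotides 4 of 5 rose, led by Rrm1, a subunit of ribonucleotide reductase, at 1.36, and Tyms was at 0.27 (adjusted p = 0.187).

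Of 13 E2f and Rb genes 6 rose and 2, E2f2 (-0.43) and E2f5 (-1.80), fell. E2f1, an activator, rose by 0.71, and its dimer partner Tfdp1 by 0.84. The other genes that rose were E2f3 (0.58), E2f6 (0.88), E2f7 (0.75) and the Rb-family gene Rbl1 (0.69). Of the 7 G1/S kinase genes 6 rose, with Cdk6 at 1.66 and Cdk4 at 1.39, and 7 of 8 damage checkpoint genes rose, with Chek1, the checkpoint kinase that watches the fork, at 1.24. 10 of 11 mitosis genes rose, with a median of 0.76.

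In polyps the same lists gave fewer calls: 1 of 9 other subunits and related genes (Orc4, 0.73), 4 of 21 start, fork and repair factors, 1 of 5 nucleotide genes (Rrm1, 1.30), 3 of 7 kinase genes, 1 of 8 checkpoint genes (Rad1, 0.91) and 4 of 11 mitosis genes. Of all genes 7.55% rose in polyps, so 1 of 9 and 1 of 8 lie near the background. The genes called among the start, fork and repair factors were Topbp1 (1.06), Top2a (1.18), Chtf18 (1.31) and Chtf8 (1.25), both of an alternative clamp loader, and among the kinase genes the cyclin gene Ccne1 (1.65), Cdk4 (1.57) and Cdk6 (0.91). Of the 13 E2f and Rb genes, E2f1 rose by 1.07 in polyps, where E2f5 (-1.51) and Rb1 (-0.97), a brake on E2f, fell. The others of that list did not pass. The lists were not compared with each other by a test.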

How the data were processed

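RNA of 24 samples was measured on Affymetrix MOE430_2 arrays, grouped by the sample labels. The values the authors deposited are standardized scores, given in 2 tables that were identical in 842640 of 842640 cells. No source used here names the summarisation software. Each score is a signal's natural log, centred on its array's mean and expressed in SDs of that array. The signal was recovered from the spacing of low values, and 100% of signals under 500 were whole multiples of 0.1 (within 0.1 of a step). The planned tests assumed log2 or linear values, so this recovered signal was treated as linear, scaled to a geometric mean of 100, as log2(signal + 16). Tests used limma 3.58.1 in R 4.3.3, two-sided, with Benjamini-Hochberg adjustment across the 35066 probe sets and calls at 0.05, in fits of the 18 small intestinal, the 6 colonic or all 24 arrays. The fit was tested on simulated data. An exact permutation test of 3 arrays against 3 cannot go below p = 0.1. A gene is its brightest probe set annotated to 1 symbol. All 46 members may be named, and values on every array are given for the members with the largest and smallest size of difference per complex and in polyps, for those whose sign differs in polyps, and for those that pass an interaction test. For Mcm6, Mcm10, Prim1, Pold1 and Tipin, small intestinal values are summarised. Members, lists and tests were chosen with earlier results of these data known. Alternatives were quantile normalization, median centring, offsets of 1 and 64, no dim probe sets, other sets of arrays, robust variances, array weights, the mean of probe sets, the authors' standardized values, a log2 difference over 1, and each array left out in turn. Preferring probe sets without an s or x suffix was added after the data were seen. Chaf1a is not analysed here.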

Additional observations from a re-analysis of the deposited data

Results flagged for a closer look

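On their brightest probe sets, the size of the Apc effect differed between days for Fen1 and Prim2 by an interaction test across all probe sets (limma, Benjamini-Hochberg adjustment, 3 arrays a group). For the brightest set of Fen1 the effect was higher at day 4 than at day 3 by 2.22 (adjusted p = 0.0422) and at day 5 than at day 3 by 2.60 (adjusted p = 0.00502) on the log2 scale. For Prim2 it was higher at day 5 than at day 3 by 1.45 (adjusted p = 0.0404). On the other set of each gene the same values were 0.29 and 0.20 for Fen1 and 0.57 for Prim2, none past the threshold. The first Fen1 call was lost without any 1 of 14 arrays and that of Prim2 without any 1 of 12, and each under 5 other settings.

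The difference in polyps was lower than the mean Apc effect in the small intestine for 8 genes, each by a test of the difference itself in the fit of all 24 arrays (limma), where 10.7% of all genes were lower. The count ran from 0 to 14 with single arrays left out, and 0 of the 8 genes kept their call in every setting compared. These were Cdt1 (-0.83, adjusted p = 0.0499), Gmnn (-0.86, adjusted p = 0.0438), Mcm6 (-0.88, adjusted p = 0.0458) and Mcm10 (-0.84, adjusted p = 0.0273). The others were Prim1 (-0.75, adjusted p = 0.048), Pold1 (-0.79, adjusted p = 0.0167), Tipin (-0.88, adjusted p = 0.0208) and Wdhd1 (-0.87, adjusted p = 0.0227).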

How the results depend on the processing

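With 3 arrays a group, the small intestinal calls were the firmest: over 36 of the 37 alternatives, those other than a log2 difference over 1, 36 of the 40 genes called for the mean of days kept their call in every one that applied, as did 15 of 30 at day 3, 24 of 35 at day 4, 27 of 35 at day 5 and 2 of 8 in polyps. With that rule as well these were 24, 14, 23, 23 and 2. Calls in polyps, between days and between tissues rest on few arrays and dim genes on the offset. No paired analysis was possible because replicate numbers here only name arrays and the labels tie no animal of one group to one of another. The cause of the changes below was not tested.

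Leaving out 1 array gave 22 to 31 calls at day 3, 30 to 37 at day 4, 31 to 36 at day 5, 38 to 40 for the mean of days and 3 to 12 in polyps. It gave 0 to 1, 0 to 0 and 1 to 3 for the Apc effect of day 4 minus 3, day 5 minus 4 and day 5 minus 3, and 1 to 4, 0 to 0 and 1 to 6 for wild-type day 4 against 3, day 5 against 4 and day 5 against 3. It gave 4 to 20 for Apcfl/fl day 5 against 3, 3 to 16 between normal tissues and 0 to 14 for polyps minus the Apc effect.

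The day 3 count of 30 became 17 when just its own 6 arrays were fitted and 19 with a log2 difference over 1 as well, which took the mean of days from 40 to 24. The polyp count of 8 became 4 with an offset of 1, 5 with the authors' standardized values, 23 with array weights and 15 in a fit of all 24 arrays. The count of 1 for day 4 minus 3 became 0 with median centring, an offset of 1, no dim probe sets, the mean of probe sets or sets without an s or x suffix. The count of 2 for day 5 minus 3 became 1 with quantile normalization, an offset of 1, standardized values, array weights or sets without an s or x suffix, and 0 with the mean of probe sets. For wild-type day 4 against 3 the count of 3 became 1 with an offset of 1, standardized values, the mean of probe sets or array weights. For wild-type day 5 against 3 the count of 4 became 2 with an offset of 1 or array weights and 1 with the mean of probe sets. For Apcfl/fl day 5 against 3 the count of 14 became 8 with quantile normalization or an offset of 1 and 5 with standardized values. For polyps minus the Apc effect the count of 8 became 1 with quantile normalization, 4 with an offset of 1 and 1 with standardized values.

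With sets without an s or x suffix Fen1 turned to 0.90 at day 3, 1.06 for the mean of days (0.39 with the mean of probe sets), 0.53 in polyps, 0.35 for wild-type day 4 against 3 and 0.47 for day 5 against 3. Mcm2 turned to -0.0091 for the mean of days with quantile normalization, and in polyps to 1.05 with sets without a suffix, 0.47 with the mean of probe sets and 0.039 with array weights. Orc1 turned to -0.086 for the mean of days with quantile normalization and -0.036 with standardized values, and to 0.35 in polyps with the mean of probe sets. In polyps Gins3 turned to 0.12 with the mean of probe sets and 0.18 with array weights, and Gmnn to 0.13 with array weights. Leaving out 1 array gave values on both sides of 0 for genes that had not passed: Orc2 (-0.081 to 0.54) and Prim2 (-0.039 to 0.30) at day 3, Orc1 for the mean of days (-0.072 to 0.070), and in polyps Gins3 (-0.23 to 0.17), Gmnn (-0.37 to 0.10), Mcm2 (-0.40 to 0.22), Pold1 (-0.15 to 0.0038) and Wdhd1 (-0.034 to 0.37).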
